A study of Homo sapiens with 12 samples.

Results

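The 4 genes FDFT1, SQLE, LSS and CYP51A1 encode the enzymes that carry farnesyl diphosphate into sterols, from squalene to lanosterol and the removal of its first methyl group. Their rows were taken by gene symbol from each of the 3 deposited expression tables, so 4 genes were followed among 16491 in the HCC70 table, 18217 in the table for XY018 and ATV in MDA-MB468, and 55744 names in the table for GSK805. All 4 were found once in every table, and all passed the filter on low values in every comparison. HCC70 and MDA-MB468 are cell lines of triple-negative breast cancer (TNBC), a subtype that lacks the estrogen and progesterone receptors and HER2 amplification. Both lines were cultured for 24 h with vehicle, with XY018 at 1.25 or 2.5 μM, with atorvastatin (ATV) at 1.25 μM, or with XY018 and ATV together at 1.25 μM each. XY018 is an antagonist of the nuclear receptor RORγ. A further pair of MDA-MB468 cultures received vehicle or the RORγ antagonist GSK805 at 2.5 μM for 24 h, with values in a table of its own. RNA was sequenced in 1 library per condition, 12 in all, so the differences below lack a replicate check and carry no p-value. The comparisons address whether RORγ antagonists lower these genes, whether the dose matters, and whether XY018 removes the rise of these genes under a statin.

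Cholesterol is built from acetyl-CoA through mevalonate and farnesyl diphosphate. Squalene synthase (FDFT1) joins a pair of farnesyl diphosphate molecules head to head, and this step commits the carbon to sterols, since farnesyl diphosphate also serves protein prenylation, dolichol and ubiquinone. Squalene epoxidase (SQLE) adds an oxygen atom and is a rate-limiting enzyme of the later pathway, lanosterol synthase (LSS) folds the epoxide into the 4-ring lanosterol skeleton, and lanosterol 14-alpha-demethylase (CYP51A1) is the cytochrome P450 that acts on lanosterol. Sterol-regulated transcription factors of the SREBP family act on genes of this pathway when cell sterol is low, and statins such as ATV are drugs that block cholesterol synthesis upstream of these steps.

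Because the 4 genes were lower together in the antagonist comparisons below, the stretch before the RefSeq start of transcription is shown where the RefSeq promoter table (build GRCh38.p14) held it, which was the case for LSS and CYP51A1. The windows of 250 bases before the start were found again on GRCh37 by exact match, each once on its chromosome. The bases outside annotated exons are given here 5′ to 3′ on the strand of the gene, at chr21:47648739-47648938 for LSS and chr7:91763818-91763979 for CYP51A1. For CYP51A1 the GENCODE annotation starts further upstream than RefSeq, at base 91764117 of chromosome 7, so the stretch shown lies between exons of that longer annotation and inside the gene span given for it. Capitals mark GC boxes (GGGCGG, or CCGCCC when on the other strand) and CCAAT boxes (CCAAT, or ATTGG when on the other strand).
LSS: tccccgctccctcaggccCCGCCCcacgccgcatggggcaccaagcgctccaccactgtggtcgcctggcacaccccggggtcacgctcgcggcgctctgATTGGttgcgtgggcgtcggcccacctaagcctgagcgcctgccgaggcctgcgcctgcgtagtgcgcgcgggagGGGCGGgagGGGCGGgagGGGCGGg
CYP51A1: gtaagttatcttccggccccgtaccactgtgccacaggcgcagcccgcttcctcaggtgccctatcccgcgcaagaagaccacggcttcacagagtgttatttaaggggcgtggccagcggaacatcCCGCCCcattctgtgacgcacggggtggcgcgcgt

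Over the whole window of 250 bases, the LSS promoter held 6 GC boxes and 1 CCAAT box, and the CYP51A1 promoter held 1 GC box. Searched on both strands, the GC box was present in 42.6% and the CCAAT box in 32.0% of all 35116 promoter windows of that length. Among 16 other enzymes of the pathway, with GGPS1 on a side branch counted among them, 14 had a promoter entry, and 12 of these held a GC box and 11 a CCAAT box. The sterol regulatory element as TCACNCCAC (0.883% of all windows), the E-box CACGTG (6.34%), the core AGGTCA of ROR response elements (12.1%) and its longer form TAGGTCA (1.61%), which contains the shorter one, were not found in the LSS or CYP51A1 window. Of the 14 other enzymes with a promoter entry, 0 held the sterol regulatory element or either ROR form, and 1 held the E-box. Only the letters given here were searched for. The putative ROR sites that the paper mutated in the MVK and HMGCS1 promoters do not contain AGGTCA, so this search could not find sites of that form. The absence says only that these letters are not in this stretch, and whether other forms of the elements are present was not tested.

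In the GENCODE annotation of GRCh37, FDFT1 lies at chr8:11653082-11696904 and SQLE at chr8:126010739-126034525, both on the plus strand. LSS spans chr21:47608055-47648738 and CYP51A1 chr7:91714301-91764117, both on the minus strand.

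The values were read as FPKM, the fragments of a gene per unit of transcript length and of mapped fragments. The files name no unit, and this reading rests on the quantification in Cufflinks, on the column sums and on the spacing of low values. On it, levels of different genes can be set in order within a library. The 3 tables were normalized separately, and levels across tables are only set side by side. The files hold no counts. Genes with few fragments take FPKM values in steps of 1 fragment, and these steps put the depth at 8960000 to 9860000 fragments per library for HCC70, at 17700000 to 19600000 for MDA-MB468 with XY018 and ATV, and at 8380000 and 8680000 for the GSK805 pair. An estimated 140 to 18875 fragments lay behind each level of the 4 genes. The 95% intervals given below come from these estimates by the exact Clopper-Pearson method and cover counting error only. Fragments were taken over the full median length of the annotated coding transcripts. Depth was estimated with 20 nt taken off the length, or 200 nt for the GSK805 pair. Fragments are thus overstated, most for that pair, and its intervals are somewhat too narrow. Both lines carried epithelial transcripts in every library, among them KRT8 at 217 to 967 FPKM and EPCAM at 58.8 to 153 FPKM. ESR1 was at 0.37 to 5.67 FPKM, PGR was listed at 0 in the 7 libraries that list it, and ERBB2 was at 25.3 to 57.7 FPKM. The upper ends are with GSK805, where ESR1 went from 1.77 to 5.67 FPKM and ERBB2 from 35.2 to 57.7 FPKM. Of 5 markers of other cell types, COL3A1, a fibroblast collagen, was at most 0.067 FPKM, the leukocyte gene PTPRC at most 1.06 FPKM and the endothelial gene PECAM1 at most 1.21 FPKM in the 10 libraries that list it. The collagen gene COL1A1 was at 3.84 to 17.2 FPKM over the 12 libraries. CD68, a macrophage marker that other cells also express, was at 76.6 to 98.8 FPKM in HCC70 and at 3.83 to 16.4 FPKM in MDA-MB468. In bulk RNA, fewer cells that express a gene and less RNA per cell cannot be told apart.

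In untreated HCC70 cells SQLE had the highest level of the 4 genes and LSS the lowest. SQLE was at 80.1 FPKM with vehicle, 18.0 with XY018 at 1.25 μM, 11.0 at 2.5 μM, 105 with ATV and 15.3 with XY018 and ATV. CYP51A1 was at 70.0, 25.9, 15.6, 84.0 and 21.7 FPKM in the same order of libraries. Thus the 3 libraries with XY018 were low for both oxygen-using enzymes, and the vehicle and ATV libraries were high. FDFT1 was at 41.2, 18.8, 13.98, 45.4 and 16.0 FPKM. LSS was at 27.0, 9.18, 7.95, 43.95 and 8.31 FPKM. For all 4 genes each library with XY018 lay below the vehicle and ATV libraries. The share of all genes with this order was not counted.

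The order of the 4 genes was not fixed in HCC70. With vehicle and with ATV it ran from SQLE through CYP51A1 and FDFT1 to LSS, and in each library with XY018 it ran from CYP51A1 through FDFT1 and SQLE to LSS. SQLE thus went from the head of the order to the next to last place. In rank among genes at 1 FPKM or above, SQLE stood above 92.2% of genes with vehicle and above 49.6% with XY018 at 2.5 μM. FDFT1 and SQLE could not be told apart by counting error in the library with XY018 at 1.25 μM (ratio 1.04, interval 0.873 to 1.25) or in that with both compounds (1.05, 0.870 to 1.26). The same held for CYP51A1 and FDFT1 with XY018 at 2.5 μM (1.12, 0.939 to 1.32) and for FDFT1 and LSS with ATV (1.03, 0.945 to 1.13).

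In MDA-MB468 the level of FDFT1 stood far above the other 3 genes. FDFT1 was at 342 FPKM with vehicle, 272 with XY018 at 1.25 μM, 219 at 2.5 μM, 505 with ATV and 182 with both compounds. The vehicle value placed it above 98.6% of the genes at 1 FPKM or above, and it was 4.47 times that of SQLE, while in HCC70 the same ratio was 0.514. SQLE was at 76.6, 45.4, 36.7, 139 and 24.3 FPKM in the same order of libraries. LSS was at 56.6, 29.8, 29.4, 122 and 24.7 FPKM. CYP51A1 was at 39.8, 22.3, 17.1, 69.2 and 15.9 FPKM. For each gene the ATV library was the highest, the library with both compounds the lowest, and all libraries with XY018 lay below vehicle. How many of all genes show this order was not counted here either. The order ran from FDFT1 through SQLE and LSS to CYP51A1, except with both compounds, where LSS and SQLE could not be told apart by counting error (ratio 1.02, 0.923 to 1.12).

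**Figure D1:**
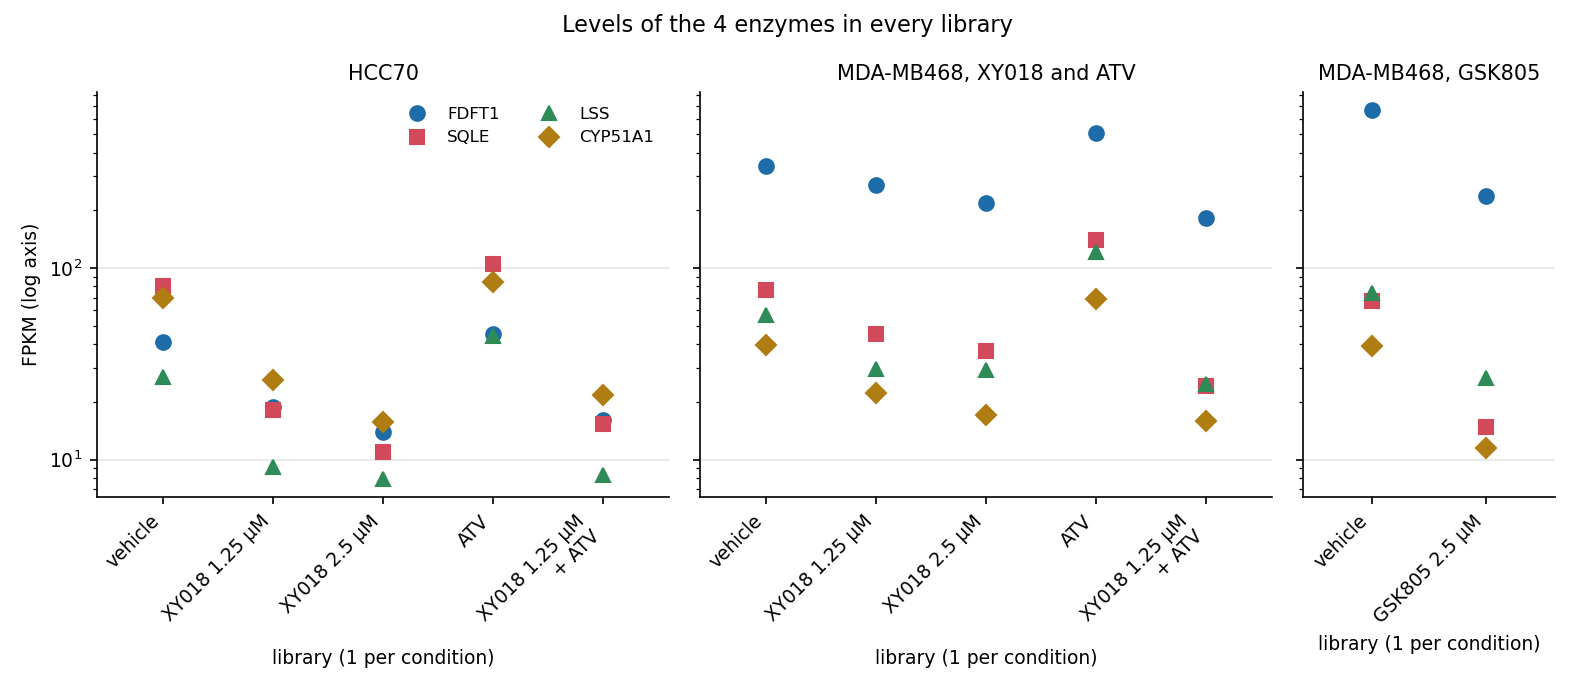
FPKM (log axis) of FDFT1, SQLE, LSS and CYP51A1 in each of the 12 libraries, with 1 point per library and gene and no error bars because each condition has 1 library. In HCC70, SQLE falls from 80.1 to 11.0 FPKM at the higher dose of XY018 and passes below CYP51A1 and FDFT1, while in MDA-MB468 FDFT1 stays the highest in every library.

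All 4 genes fell by more than 1.5-fold in HCC70 at both doses of XY018, and SQLE fell most. Ratios are given as log2 of treated over vehicle FPKM with 0.1 added to both. At 1.25 μM 4 of 4 genes were lower by 1.5-fold, against 2.64% of the 11738 genes compared. SQLE was at a log2 ratio of -2.14 (interval -2.38 to -1.94), LSS at -1.55 (-1.78 to -1.34), CYP51A1 at -1.43 (-1.59 to -1.28) and FDFT1 at -1.13 (-1.33 to -0.94). The median of the 4 was -1.49, beside -0.01 over all genes compared. At 2.5 μM 4 of 4 were again lower, against 3.26% of all genes. SQLE reached -2.85 (-3.13 to -2.60), a 7.23-fold fall with only 7 genes of the 11721 compared further down. CYP51A1 was at -2.16 (-2.35 to -1.98), LSS at -1.75 (-1.99 to -1.54) and FDFT1 at -1.55 (-1.76 to -1.35).

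From 1.25 to 2.5 μM in HCC70, SQLE and CYP51A1 fell by a further 1.63-fold and 1.66-fold, so 2 of 4 genes were past 1.5-fold, against 1.36% of all genes. Their log2 ratios for the dose step were -0.71 (-1.03 to -0.39) and -0.73 (-0.95 to -0.52). FDFT1 moved by -0.42 (-0.66 to -0.18). For LSS the value of -0.21 had an interval that holds 0 (-0.48 to 0.07). Of the log2 fall at 2.5 μM, the share already present at 1.25 μM was 66.3% for CYP51A1, 72.8% for FDFT1, 75.2% for SQLE and 88.3% for LSS. LSS, the cyclase, was thus the member that at the lower dose lay nearest to its level at 2.5 μM.

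In MDA-MB468 the same genes fell less with XY018, and many more genes moved. At 1.25 μM 3 of 4 were lower by 1.5-fold, against 8.37% of the 11845 genes compared. LSS was at a log2 ratio of -0.92 (-1.01 to -0.84), CYP51A1 at -0.83 (-0.96 to -0.71) and SQLE at -0.75 (-0.86 to -0.65). FDFT1 stayed within 1.5-fold at -0.33 (-0.37 to -0.29), with 19.9% of all genes below it. At 2.5 μM 4 of 4 were lower, against 14.5%. CYP51A1 was at -1.21 (-1.36 to -1.08), SQLE at -1.06 (-1.18 to -0.94), LSS at -0.95 (-1.04 to -0.86) and FDFT1 at -0.64 (-0.69 to -0.60). The fall of FDFT1 is close to the threshold, and after rescaling both libraries to 8 reference genes it was -0.40 and no longer past it. On that scale 3 of 4 were lower at 2.5 μM, against 8.10% of all genes, and FDFT1 was at -0.18 at 1.25 μM. The median of the 4 was -1.002, beside 0.00 over all genes. Some markers of other cell types moved with XY018 in this line. CD68, a lysosomal protein gene of macrophages, was at 4.42 FPKM with vehicle, 11.6 and 16.4 with XY018 at 1.25 and 2.5 μM, 3.83 with ATV and 15.5 with both compounds, and at 5.54 and 12.4 in the GSK805 pair. It was the most abundant of the 5 such markers in the XY018 libraries, whose summed level went from 10.2 FPKM with vehicle to 25.7 with XY018 at 2.5 μM, with the collagen gene COL1A1 going from 4.96 to 8.21 FPKM and PTPRC from 0.60 to 1.06. COL3A1 stayed at or near 0, and the endothelial gene PECAM1 went from 0.21 to 0.11 FPKM. Epithelial keratins were lower with XY018 here, with KRT8 at 918, 567 and 468 FPKM and KRT5 at 112, 55.0 and 40.2 FPKM with vehicle and XY018 at 1.25 and 2.5 μM. The summed level of the 6 epithelial markers went from 2936 to 1851 FPKM with XY018 at 2.5 μM, from 5656 to 4091 in the GSK805 pair and from 2327 to 1794 in HCC70. Not every marker fell. In HCC70 KRT18 rose from 247 to 262 FPKM and CDH1 from 168 to 184 with XY018 at 2.5 μM. CDH1 also rose in the GSK805 pair, from 43.6 to 58.0 FPKM. The part of these markers in the result was not tested.

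The dose step in MDA-MB468 brought 0 of 4 genes past 1.5-fold, against 1.73% of all genes. CYP51A1 moved by -0.38 (-0.54 to -0.23), FDFT1 by -0.31 (-0.36 to -0.27), SQLE by -0.30 (-0.44 to -0.17) and LSS by -0.02 (-0.13 to 0.08). As in HCC70, LSS had the smallest step, and 97.6% of its log2 fall at 2.5 μM was present at 1.25 μM. Side by side at 2.5 μM, the log2 ratio in HCC70 was lower than in MDA-MB468 by 1.80 for SQLE, 0.94 for CYP51A1, 0.91 for FDFT1 and 0.81 for LSS. These differences between lines come from 1 library per condition and from tables made separately, and they were not tested.

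With ATV alone the values of the 4 genes lay above vehicle in both lines, for FDFT1 in HCC70 within counting error. In HCC70 1 of 4 genes was higher by 1.5-fold, against 2.22% of all genes. That gene was LSS at a log2 ratio of 0.70 (0.57 to 0.84). SQLE was at 0.38 (0.27 to 0.50) and CYP51A1 at 0.26 (0.16 to 0.37), both within 1.5-fold. The interval of FDFT1, 0.14 (-0.0013 to 0.28), held 0. Rescaled to the 8 reference genes, FDFT1 was at 0.31, CYP51A1 at 0.43, SQLE at 0.56 and LSS at 0.87. Still only LSS passed 1.5-fold, while 5.37% of all genes were higher on this scale. In MDA-MB468 3 of 4 were higher, against 1.37% of the 11711 genes compared. LSS was at 1.10 (1.04 to 1.17), SQLE at 0.86 (0.78 to 0.94) and CYP51A1 at 0.80 (0.71 to 0.89). FDFT1 was just short of the threshold at 0.56 (0.53 to 0.60), a 1.48-fold difference, and was at 0.62 and past it after rescaling to the reference genes. On that scale 4 of 4 were higher, against 1.62% of all genes. LSS was the highest of the 4 with ATV in both lines, and FDFT1 the lowest.

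With XY018 and ATV together, the levels of the 4 genes were below those with XY018 alone at the same 1.25 μM. With XY018 alone at 2.5 μM all 4 were lower than with the combination in HCC70 and higher than with it in MDA-MB468, but the counting interval of this difference held 0 for FDFT1 and LSS in HCC70 and for CYP51A1 in MDA-MB468. Against vehicle 4 of 4 genes were lower by 1.5-fold in HCC70, against 2.93% of all genes, and 4 of 4 in MDA-MB468, against 12.2%. In HCC70 the log2 ratios were -2.38 for SQLE, -1.69 for LSS, -1.68 for CYP51A1 and -1.35 for FDFT1. In MDA-MB468 they were -1.65 for SQLE, -1.32 for CYP51A1, -1.19 for LSS and -0.91 for FDFT1. Set against ATV alone, 4 of 4 were lower in HCC70 (2.54% of all genes) and 4 of 4 in MDA-MB468 (11.1%). This drop was close in size in both lines, at -2.76 and -2.51 for SQLE, -2.39 and -2.29 for LSS, -1.95 and -2.12 for CYP51A1, and -1.50 and -1.47 for FDFT1.

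Adding ATV to XY018 at 1.25 μM gave lower values still, in HCC70 within counting error for 3 of the 4 genes. In HCC70 0 of 4 passed 1.5-fold against XY018 alone (1.96% of all genes), with values from -0.25 for CYP51A1 to -0.14 for LSS, and the interval lay below 0 for CYP51A1 alone. In MDA-MB468 1 of 4 passed (1.76% of all genes), which was SQLE at -0.90 (-1.04 to -0.76). FDFT1 was at -0.58 (-0.62 to -0.53), CYP51A1 at -0.49 (-0.65 to -0.34) and LSS at -0.27 (-0.38 to -0.16). If the compounds acted independently on the log scale, the combination would equal the sum of both single log2 ratios. All 4 genes lay below that sum in both lines, by 0.37 for FDFT1 to 0.84 for LSS in HCC70 and by 1.14 for FDFT1 to 1.76 for SQLE in MDA-MB468. Among all genes reaching 1 FPKM in any of these 4 libraries, 50.1% lay below the sum in HCC70 and 52.0% in MDA-MB468, and 6.84% and 0.709% lay as far below it as FDFT1 or further. The same was true of 15 of 16 other enzymes of the pathway and its branch at GGPS1 in HCC70 and 16 of 16 in MDA-MB468, with medians of -0.40 and -1.40 beside -0.57 and -1.33 for the 4 genes. All these sums rest on a single vehicle library per line, which enters each term.

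**Figure D2:**
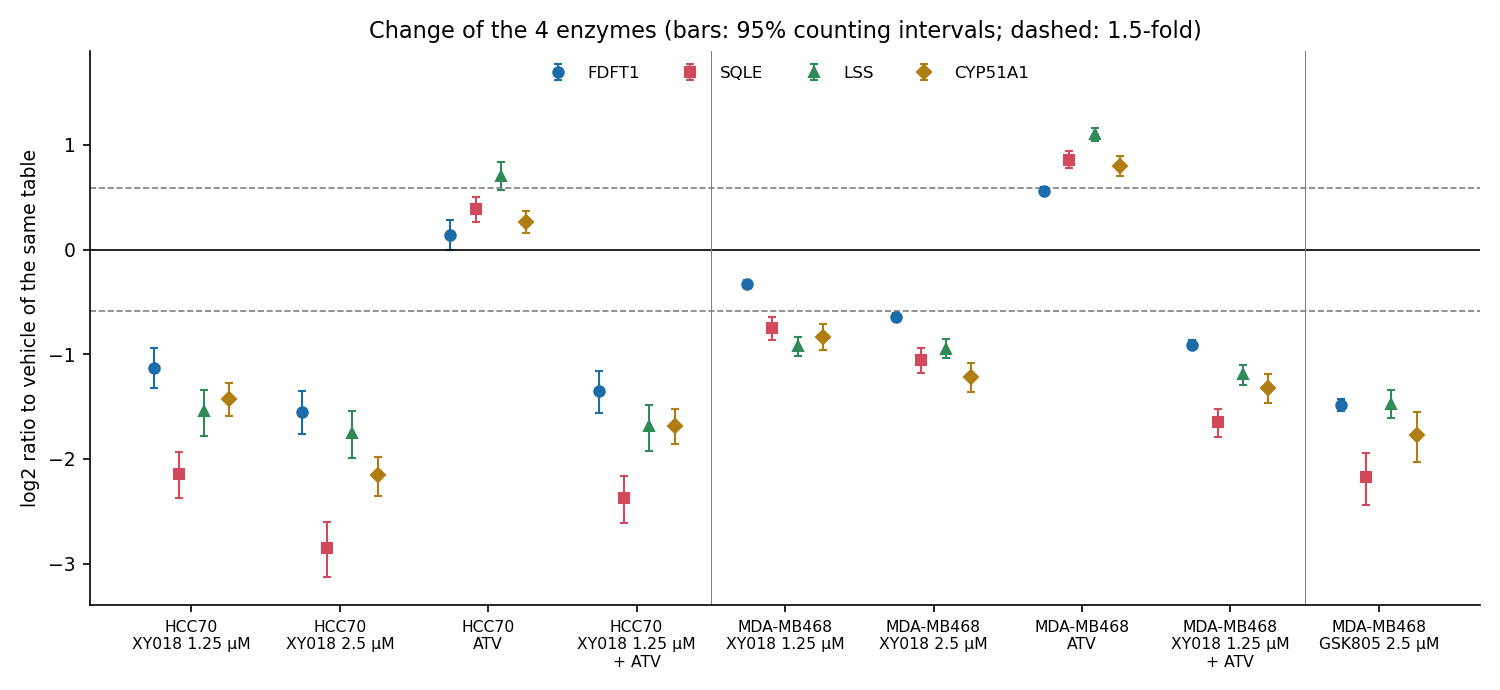
Log2 ratio of each treated library to the vehicle of its own table for FDFT1, SQLE, LSS and CYP51A1, with 95% counting intervals as bars and dashed lines at 1.5-fold. Values are below 0 in the 7 comparisons with an antagonist and above 0 in both comparisons with ATV alone, and SQLE with XY018 at 2.5 μM in HCC70 is the lowest at -2.85.

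**Figure D3:**
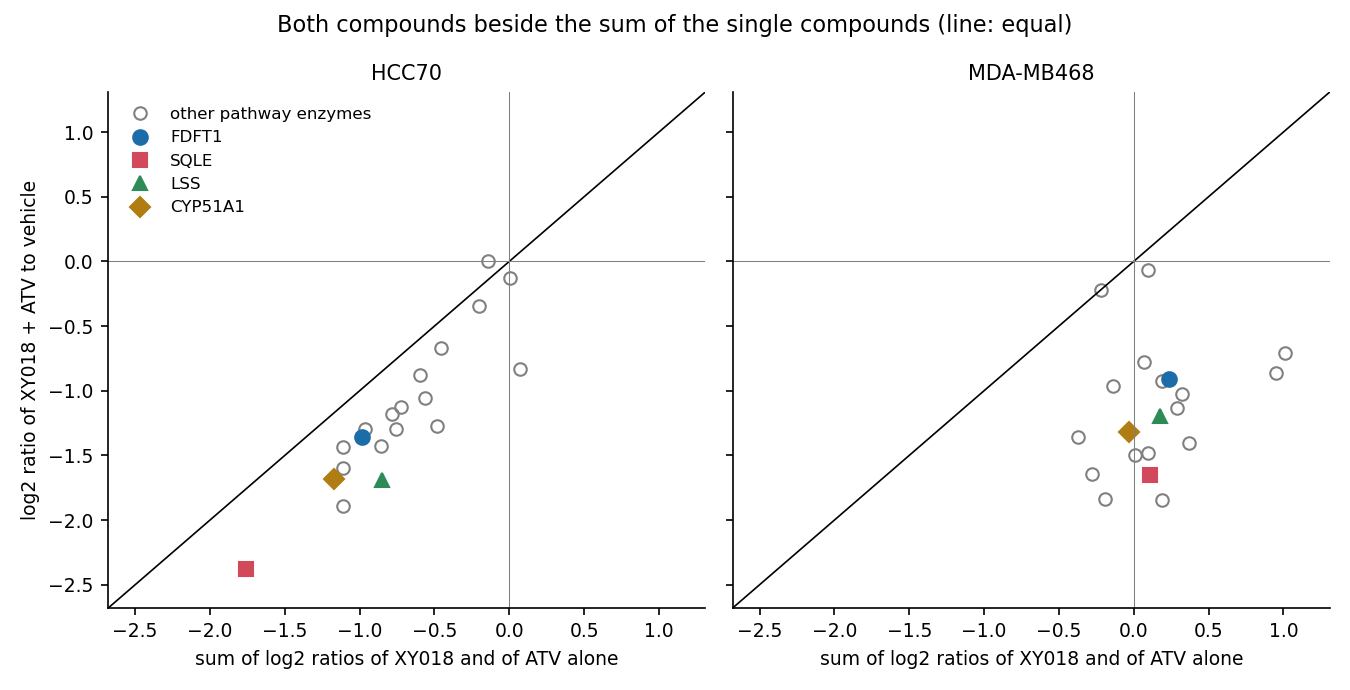
Log2 ratio of XY018 and ATV together to vehicle (vertical) against the sum of the log2 ratios of the single compounds (horizontal) for the 4 genes (filled) and 16 other enzymes of the pathway and its branch at GGPS1 (open), with the line of equality. The median of the 4 genes lies further below the line in MDA-MB468 (-1.33) than in HCC70 (-0.57), as does that of the other enzymes (-1.40 and -0.40), though single enzymes such as PMVK lie near it.

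GSK805 at 2.5 μM lowered all 4 genes in MDA-MB468. From vehicle to GSK805, FDFT1 went from 663 to 237 FPKM, SQLE from 67.3 to 14.8, LSS from 74.2 to 26.6 and CYP51A1 from 39.3 to 11.4. The log2 ratios were -2.18 for SQLE (-2.44 to -1.94), -1.77 for CYP51A1 (-2.03 to -1.55), -1.49 for FDFT1 (-1.54 to -1.43) and -1.47 for LSS (-1.61 to -1.35). Thus 4 of 4 were lower by 1.5-fold, against 16.6% of the names compared in this table, or 12.5% when only Entrez genes shared by the 3 tables were kept, a restriction chosen after the values were seen. The order of the levels was the same with and without GSK805, from FDFT1 through LSS and SQLE to CYP51A1.

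XY018 and GSK805 were used in the same line at the same dose and time, but with separate vehicles. Side by side, the log2 ratio with GSK805 was lower than with XY018 by 1.12 for SQLE, 0.84 for FDFT1, 0.56 for CYP51A1 and 0.53 for LSS. The vehicle libraries of these experiments differed too. In the GSK805 table the vehicle value on the log2 scale differed by 0.96 for FDFT1, 0.39 for LSS, -0.02 for CYP51A1 and -0.18 for SQLE. These tables are not on one scale. Measured against the vehicle of the XY018 experiment, the median of all genes with GSK805 was at 0.58, and 49.7% of genes were higher and 9.41% lower. On that base FDFT1 with GSK805 was at -0.53, within 1.5-fold, LSS at -1.08, CYP51A1 at -1.79 and SQLE at -2.36. How much of the difference between the antagonists comes from the compounds and how much from the separate tables cannot be told apart. The GSK805 table also lists the processed copies CYP51P1 at 6.84 and 3.26 FPKM, CYP51P2 at 18.0 and 4.69 FPKM and CYP51P3 at 0 in both libraries. Reads may have been split between CYP51A1 and these copies, which the other tables do not list, so its level is uncertain. On the same strand, 2 further protein-coding annotations without a gene symbol, ENSG00000285772 and ENSG00000289027, share 68.2% and 67.8% of the exon bases of CYP51A1, and how their reads were assigned was not tested. Its exons also overlap AKAP9 by 108 bases and CYP51A1-AS1 by 138 bases, both on the other strand. Long noncoding RNAs on the other strand overlap exons of LSS by 448 and 122 bases and those of FDFT1 by 217 bases. The sources used here do not state whether counting used strand. AKAP9 itself was at 4.44 to 10.1 FPKM over the 12 libraries.

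The enzymes before and after these steps mostly moved the same way. Of 8 upstream enzymes, among them GGPS1, which uses farnesyl diphosphate for geranylgeranyl diphosphate, 6 were lower by 1.5-fold with XY018 at 2.5 μM in HCC70, 5 in MDA-MB468 and 6 with GSK805, against 3.26%, 14.5% and 16.6% of all genes, and none was higher. HMGCS1, which makes HMG-CoA, had the lowest median over the 5 antagonist comparisons without ATV and was at -2.02, -1.87 and -2.75. PMVK, which phosphorylates phosphomevalonate, was nearly flat at 0.05, 0.06 and -0.21. Of the 8 enzymes after lanosterol, 7, 7 and 8 were lower in the same comparisons, against the same shares, and none was higher. Rescaled to the 8 reference genes, the counts in MDA-MB468 with XY018 at 2.5 μM were 3 for the upstream list and 4 for the later list, against 8.10% of all genes. DHCR7, the last reductase of the pathway, was at -1.59, -1.37 and -2.17. HSD17B7, the sterol 3-ketoreductase, had the highest median of this list and was at -1.04, -0.61 and -1.67. The median log2 ratio of the 4 squalene to lanosterol genes was -1.95, -1.002 and -1.63 in these comparisons, against -1.44, -0.80 and -1.98 for the upstream list and -1.07, -0.95 and -1.38 for the later list. These medians are descriptions and were not tested against each other.

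**Figure D4:**
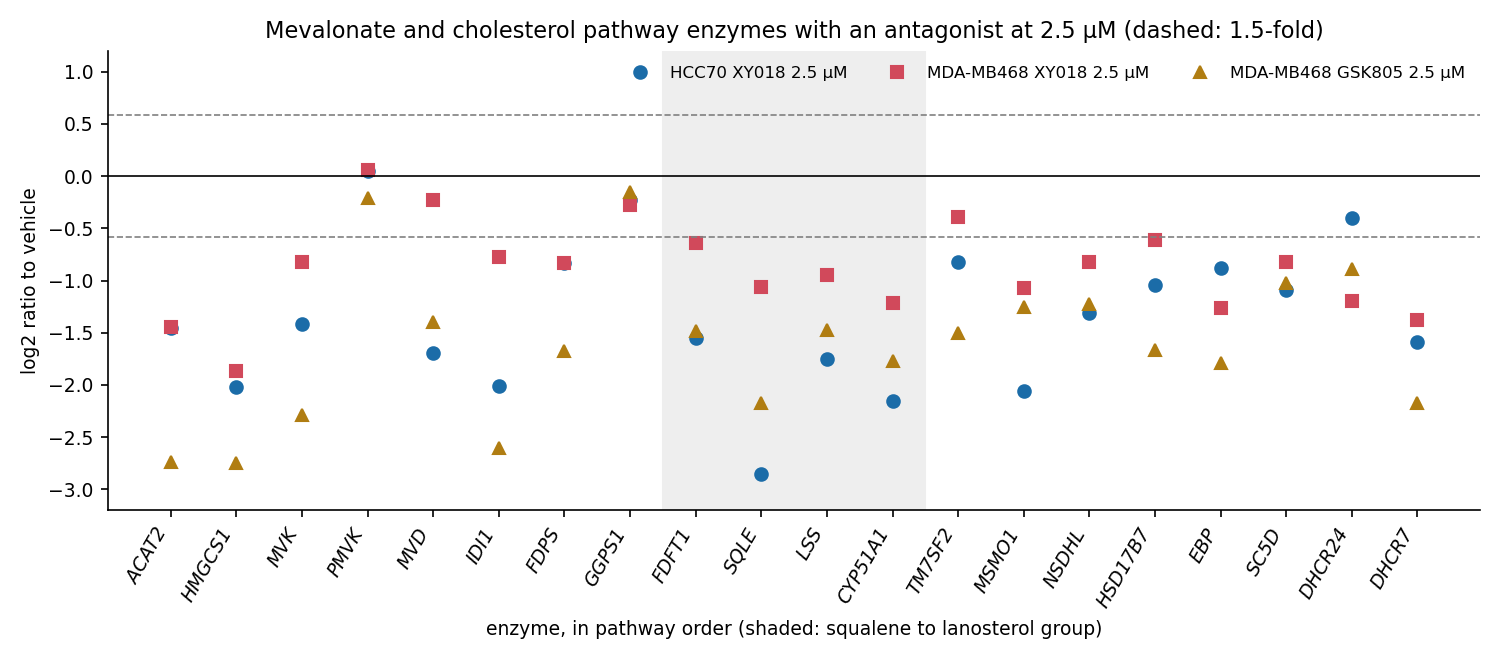
Log2 ratio to vehicle with an antagonist at 2.5 μM for 20 enzymes of the mevalonate and cholesterol pathway in its order, GGPS1 on a side branch among them, with FDFT1 to CYP51A1 shaded and dashed lines at 1.5-fold. SQLE is the lowest of these enzymes in HCC70 at -2.85, while HMGCS1 is the lowest in both MDA-MB468 comparisons (-1.87 and -2.75), and PMVK and GGPS1 stay near 0.

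Of 7 genes that draw farnesyl diphosphate away from sterols, 0 were lower and 0 higher with XY018 at 2.5 μM in HCC70, where 3.26% of all genes were lower and 2.62% higher. In MDA-MB468 3 were higher and 1 was lower at that dose, where 14.1% of all genes were higher and 14.5% lower. DHDDS and NUS1, the subunits of the enzyme that makes the dolichol chain, were at 1.49 and 0.64, and FNTA, the shared alpha subunit of farnesyl and geranylgeranyl transferase, was at 1.00. PDSS1, which makes the side chain of ubiquinone, was lower at -1.15, but at 2.32 FPKM with vehicle and 0.99 with XY018 it rests on low values. With GSK805 DHDDS was at -0.45, NUS1 at 0.08 and FNTA at 0.34, and PDSS1 was lower at -1.09. In HCC70 FNTB, the beta subunit of farnesyl transferase, was higher at 1.25 μM at 0.59 and within 1.5-fold at 2.5 μM at 0.45.

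The list of electron donors and partners of the monooxygenases SQLE and CYP51A1 has 5 genes, of which POR serves both enzymes. All 5 were below 0 with XY018 at 2.5 μM, with a median log2 ratio of -0.10 in HCC70, where 0 were past 1.5-fold (3.26% of all genes were lower). In MDA-MB468 the median was -0.50 and 1 was lower, beside a median of 0.00 over all genes, of which 14.5% were lower. With GSK805 all 5 were below 0 too, with a median of -0.37 and 0 past 1.5-fold (16.6% of all genes were lower). These directions rest on the scale, since after rescaling to the 8 reference genes 2 of the 5 were below 0 with XY018 at 2.5 μM in HCC70, 3 in MDA-MB468 and 3 with GSK805. On that scale 0 were past 1.5-fold in any of them, where 2.26%, 8.10% and 9.72% of all genes were lower. With XY018 and ATV in MDA-MB468 the median was -0.50 and 2 were lower (12.2% of all genes), PGRMC1, a heme-binding partner of P450 enzymes, at -0.59 and CYB5B at -0.59. Rescaled, 0 were lower there too, against 6.99% of all genes. Against ATV alone 3 of the 5 were lower in that line (11.1% of all genes). POR, the reductase that feeds both enzymes, was at 65.4, 60.5, 62.1, 69.4 and 65.0 FPKM in HCC70 and at 48.1, 44.1, 47.9, 46.4 and 43.7 FPKM in MDA-MB468, in the order vehicle, XY018 at 1.25 μM, XY018 at 2.5 μM, ATV and both. All these values lay within 1.5-fold of vehicle, and with GSK805 POR was at -0.54. CYB5A, a cytochrome b5, was lower at -0.61 with XY018 at 2.5 μM in MDA-MB468. CYB5B, its outer mitochondrial counterpart, had the lowest median of the list and was at -0.38, -0.50 and -0.46 in the comparisons at 2.5 μM.

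Among the regulators, INSIG1, which retains the SREBP escort protein SCAP in the endoplasmic reticulum and is itself a sterol-regulated gene, moved as the 4 enzymes did. It was at 32.3, 11.4, 7.79, 44.8 and 9.75 FPKM in HCC70 and at 30.1, 17.5, 15.4, 61.8 and 8.68 FPKM in MDA-MB468, in the order given for POR, and went from 58.6 to 10.6 FPKM with GSK805. In both lines the ATV library was the highest and every library with XY018 lay below vehicle. INSIG2, its paralog, was higher with XY018 in MDA-MB468 (0.69 at 2.5 μM) and was at -0.08 in HCC70 and -0.37 with GSK805. SREBF2, which encodes SREBP2, was lower than vehicle in each of the 5 antagonist comparisons without ATV but past 1.5-fold in none, from -0.52 with XY018 at 2.5 μM in HCC70 to -0.11 at 1.25 μM in MDA-MB468. Rescaled to the 8 reference genes, SREBF2 was at 0.04 and 0.08 with XY018 at 1.25 and 2.5 μM in MDA-MB468, so its direction there rests on the scale. SREBF1, which encodes SREBP1, was higher with XY018 in HCC70 (0.90 at 2.5 μM), at -0.03 with that dose in MDA-MB468 and lower with GSK805 (-2.04). This last value rests on its own vehicle, at 188 FPKM against 45.5 with GSK805. The other MDA-MB468 vehicle was at 41.4 FPKM, on a separate scale. MBTPS1, a protease that cuts SREBPs, was at 0.08, 0.07 and 0.02 in the comparisons at 2.5 μM. MBTPS2, the protease of the next cut, went from 4.31 to 2.35 FPKM with XY018 at 2.5 μM in MDA-MB468, a log2 ratio of -0.85, and was at 0.05 in HCC70 and -0.11 with GSK805.

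Genes with the pattern most like the 4 were searched for among the 10416 genes that were matched across the 3 tables and reached 1 FPKM in each vehicle library. Likeness was the root mean square difference from the mean of the 4 genes over the 9 log2 ratios to vehicle. The 10 most like were MSMO1, INSIG1, IDI1, PNPLA3, DHCR7, MVK, NSDHL, MVD, FADS2 and C14orf1, at differences of 0.22 for MSMO1 to 0.49 for C14orf1, and 6 of them are in the lists of cholesterol synthesis enzymes. MSMO1, the sterol methyl oxidase that acts after CYP51A1, was at -2.06, -1.07 and -1.26 in the comparisons at 2.5 μM. PNPLA3, a lipid droplet protein, and FADS2, a fatty acid desaturase, lie outside the sterol pathway. PNPLA3 was at -1.45, -1.16 and -1.94 and FADS2 at -1.53, -0.44 and -1.33. Among the 4 genes themselves, CYP51A1 was nearest to their mean (0.12), followed by LSS (0.21), FDFT1 (0.37) and SQLE (0.43). The 9 ratios share vehicle libraries and so are not independent.

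**Figure D5:**
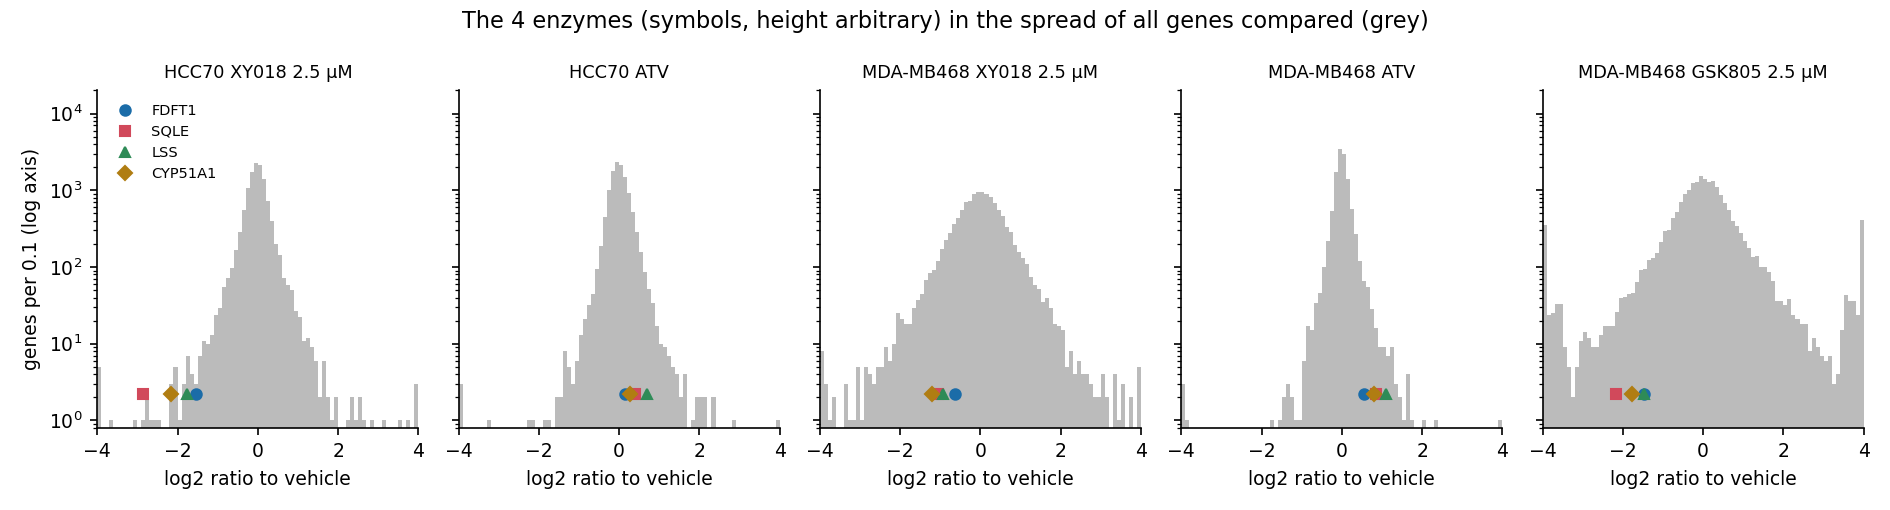
Number of genes per 0.1 of log2 ratio (log axis) over all genes compared, with the 4 genes as symbols at an arbitrary height, in 5 comparisons with vehicle. The first and last bins also hold values beyond the axis. The spread of all genes is wider with XY018 in MDA-MB468 (14.5% lower by 1.5-fold) and with GSK805 (16.6%) than with XY018 in HCC70 (3.26%), where SQLE and CYP51A1 lie at the far left.

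The housekeeping genes often used as references did not all hold steady in MDA-MB468. Of the 8 listed, 3 were lower by 1.5-fold with XY018 at 2.5 μM, against 14.5% of all genes, and 1 with GSK805, against 16.6%. At that dose of XY018 ACTB was at -2.31, PPIA at -0.98 and HPRT1 at -0.76. ACTB, which encodes beta-actin, was at 3718 FPKM with vehicle, 1175 with XY018 at 1.25 μM, 751 at 2.5 μM, 2984 with ATV and 781 with both compounds. With GSK805 it went from 5485 to 1410 FPKM. RPLP0, a ribosomal protein gene, had the highest median of this list and was at 0.24 and 0.36 with XY018 and GSK805 at 2.5 μM. The median of the 8 reference genes was -0.24 with XY018 at 2.5 μM in MDA-MB468, -0.21 with both compounds and -0.32 with GSK805, beside 0.00, 0.01 and 0.01 for all genes. Scaling to these 8 genes changes the share of genes lower and higher by 1.5-fold from 14.5% and 14.1% to 8.10% and 25.3% with XY018 at 2.5 μM in MDA-MB468, and from 16.6% and 17.6% to 9.72% and 32.9% with GSK805. On that scale the 4 genes were still below vehicle in each of the 7 antagonist comparisons and above vehicle with ATV in both lines. The part of the falls of ACTB, PPIA and HPRT1 in these results was not tested.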

How the data were processed

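RNA-seq values of 12 libraries from HCC70 and MDA-MB468 cells were analysed. The libraries were made from total RNA with a TruSeq kit, and the authors mapped reads to GRCh37 (hg19) using BWA and Bowtie and quantified them in Cufflinks. Versions are not given in the sources used here. The deposited values were taken as FPKM, in 3 tables normalized separately by the authors. The headers name no unit, and FPKM was inferred from the use of Cufflinks, the column sums and the spacing of low values. Samples were grouped by the labels, and every sample column was used. Log2 ratios were computed with a pseudocount of 0.1, which understates the change of low genes, for genes reaching 1 FPKM in either library compared, and counted at 1.5-fold. No test was run, because each condition has 1 library, and nothing says how the cultures relate. Gene names of the GSK805 experiment were converted to Entrez IDs, of which 16210 were common to the 3 tables. Depth was estimated over 13 offsets to the transcript length, up to 240 nt, and is approximate. The calculation was tested on simulated data.

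The 4 genes and the 6 gene lists were chosen with earlier results of these data known. The genes named are the 4 enzymes, INSIG1, SREBF1, SREBF2 and POR, the genes with the lowest and highest median of each list over the 5 antagonist comparisons without ATV, at most 3 genes per list past 1.5-fold in the opposite direction, and the 10 most like genes. CYB5A, PGRMC1, MBTPS2, PPIA and HPRT1 were named after their values were seen. Alternatives were pseudocounts of 1 and 0.01, a minimum of 5 FPKM, no minimum, rescaling to the median gene or to 8 reference genes, a threshold of 2-fold, the vehicle of the XY018 experiment for GSK805, and Pearson correlation for likeness. One gene of the pathway is not reported here and is left out of the lists and the likeness search. ChIP-seq, protein and animal data were not analysed here. Computation used scipy 1.17.1, pandas 2.3.3, numpy 2.4.6 and matplotlib 3.10.9 under Python 3.11.15.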

Additional observations from a re-analysis of the deposited data

Results flagged for a closer look

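SREBF1, the gene of SREBP1, moved in opposite directions in the lines with XY018 and ATV together. The log2 ratio to vehicle was 1.23 in HCC70 (37.4 to 87.6 FPKM) and -0.92 in MDA-MB468 (41.4 to 21.9 FPKM), both past 1.5-fold. It stands apart because each line has 1 library per condition and the libraries of the lines moved opposite ways, and the difference itself was not tested. In both lines FDFT1, SQLE, LSS and CYP51A1 fell by more than 1.5-fold in the same comparison.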

How the results depend on the processing

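None of the log2 ratios of the 4 genes or their medians changed sign under the alternatives run. Of 324 log2 ratios to vehicle of the other listed genes, 46 changed sign on rescaling to the 8 reference genes, an alternative chosen for the lists after seeing the data, and none of these lay below -0.31. Values of the 4 genes at pseudocounts of 1 and 0.01, a minimum of 5 FPKM, no minimum and rescaling to the median gene stayed within 1.5 times the count or within counting error, except the median with both compounds against ATV in MDA-MB468, which was -2.15 with a pseudocount of 1. At a threshold of 2-fold, 0 of the 4 genes were higher with ATV in HCC70, against 0.451% of all genes. In MDA-MB468 0 were lower with XY018 at 1.25 μM (2.305% of all genes) and 2 at 2.5 μM (5.26%), and 1 was higher with ATV (0.342%). With both compounds there, FDFT1 at -0.91 was not past 2-fold, where 4.38% of all genes were lower. Rescaled to the 8 reference genes, the median of the 4 genes was 0.49 with ATV in HCC70, and in MDA-MB468 -0.65 and -0.76 with XY018 at 1.25 and 2.5 μM, 0.89 with ATV, -1.05 with both compounds and -1.30 with GSK805. With the XY018 vehicle as its base, the median with GSK805 was -1.44. By Pearson correlation, 7 of the 10 most like genes were shared, and 9 at a minimum of 5 FPKM. No paired analysis was possible because each condition has 1 library, and no library could be left out. Depth limits only the small differences, such as the dose step of LSS.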
